A study of Mus musculus with 4 samples.

Results

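The hexose and sodium-sugar transporters are 8 genes whose products carry sugars and related small solutes across the membranes of gut and kidney cells. They are Slc2a2, Slc2a5, Slc5a1, Slc5a4a, Slc5a4b, Slc5a9, Slc5a11 and Slc5a12. Members were taken by name: every probe other than a control whose gene name in the array files is 1 of the 8. This gave 11 of 39429 probes and 8 of 30118 named genes or transcripts. Slc5a9, Slc5a11 and Slc5a12 have 2 probes each, and the other members have 1. The study used wild type mice of strain C57/BL6 and 4 one-colour Agilent arrays of total RNA: 1 of whole intestine, 1 of crypt, 1 of y-organoid and 1 of o-organoid. Its title concerns acetylcholine made outside neurons and the Lgr5-positive stem cells of the gut. Crypts are the epithelial pits between the villi that house the stem cells, and both organoid samples are labelled as crypt-villus organoids, which are grown from gut epithelium in culture. The sources used here do not say what the letters y and o mean, nor the age of the animals or the number pooled. All 4 samples are of the same genotype and none is labelled with a treatment. RNA was extracted with the acid guanidinium, phenol and chloroform method, and Cy3 labelling used 40 ng of it for the o-organoid and 20 ng for each other sample.

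Dietary starch and disaccharides are cut to monosaccharides by enzymes of the enterocyte brush border. Glucose and galactose then enter the enterocyte from the lumen with sodium, driven by the sodium gradient that the Na,K-ATPase maintains, while fructose enters by facilitated diffusion. Facilitated carriers of the Slc2 family let sugars leave towards the blood, and carriers of the Slc5 family use the sodium gradient for sugars, inositols and small acids. These genes are best known from mature absorptive cells of the villus, not from the stem cells of the crypt.

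Signals are on the log2 scale relative to the 75th percentile of all probes of that array, so that 0 is the level of a fairly bright probe and 1 unit is a 2-fold step. Between 51.9% and 58.7% of spots were well above background by the scanner software's flag, and no spot was saturated. The lowest signal with that flag lay between -5.00 and -4.47 on the 4 arrays. Each group has 1 array, so that no difference below has a test, a p-value or a standard error between groups, and the number of arrays limits the precision. The spread of probes spotted repeatedly on an array is the only error available. Its pooled SD, taken over the arrays, was 0.041 to 0.065 for signals above 2, 0.054 to 0.081 between -2 and 2, and 0.155 to 0.281 below -2. It covers the spots of 1 array and not the spread between mice or cultures. In bulk RNA, fewer cells of a type and less RNA per cell cannot be told apart.

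The probes are 60-base oligonucleotides, with coordinates in build mm9 as the array files give them. Slc2a2 was read at chr3:28627016-28627075, Slc2a5 at chr4:149517775-149517834 and Slc5a1 at chr5:33504561-33504620, all on the plus strand. Slc5a4a was read at chr10:75651951-75652010 on the plus strand and Slc5a4b at chr10:75525000-75525059 on the minus strand. The brighter probe of Slc5a9 lies at chr4:111549855-111549914 and the dimmer at chr4:111548878-111548937, both on the minus strand. For Slc5a11 the brighter probe lies at chr7:130416704-130416763 and the dimmer at chr7:130391454-130391513, and for Slc5a12 they lie at chr2:110489432-110489491 and chr2:110487868-110487927, all on the plus strand. The files place each probe in the transcript of its gene and do not name exon or UTR. Shown here are the target sequences of Slc5a4a and Slc5a4b, neighbours of 1 family of which the first was near background in both organoids and the second was high in the o-organoid, and the more upstream probe of Slc5a11, which gives another reading of that gene. Each stretch has 2 forward reading frames free of stop codons; no letters are in capitals because no part is singled out.
Slc5a4a, first 50 bases of the probe: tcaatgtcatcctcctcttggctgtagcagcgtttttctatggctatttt
Slc5a4b, whole probe: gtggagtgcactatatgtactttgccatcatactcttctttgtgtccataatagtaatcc
Slc5a11, dimmer probe, whole: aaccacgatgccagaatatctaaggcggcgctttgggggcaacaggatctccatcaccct
No member probe shared a run of more than 17 bases with a probe of another gene on the array, and the shortest such maximum was 12 bases. The run of 17 bases is between the brighter Slc5a11 probe and a probe of Mrps18b. Probes were compared with probes and not with transcripts. The runs therefore do not show whether a probe also binds the transcript of a related gene, such as Slc5a4a and Slc5a4b for each other.

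The facilitated carriers of the Slc2 family were bright on the intestine and crypt arrays and lower on both organoid arrays. Slc2a2 encodes GLUT2, which passes glucose, galactose and fructose across the basolateral membrane. Its log2 signal was 3.53 on the intestine, 2.82 on the crypt, -0.48 on the y-organoid and -0.77 on the o-organoid array. The 2 tissue arrays were high and the 2 organoid arrays low. Against crypt, Slc2a2 was 9.87-fold lower in the y-organoid, a log2 difference of -3.30 with a technical SD of 0.10, and 12.1-fold lower in the o-organoid (-3.59, technical SD 0.08). Slc2a5 encodes GLUT5, the fructose carrier of the brush border. Its log2 signal was 4.74 on the intestine, 4.13 on the crypt, 1.10 on the y-organoid and 1.65 on the o-organoid array, the same split into tissue and culture. Relative to crypt it was 8.14-fold lower in the y-organoid (-3.03, technical SD 0.10) and 5.57-fold lower in the o-organoid (-2.48, technical SD 0.08). Between the organoids, Slc2a2 differed by -0.29 and Slc2a5 by 0.55 (o-organoid minus y-organoid), both less than 2-fold as scaled here. Neither value is settled by these arrays: under the other settings Slc2a2 ran from -0.44 to 0.35, changing sign, and Slc2a5 ran from 0.40 to 1.19, past 2-fold with median scaling and with the deposited table.

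Slc5a1 encodes SGLT1, the sodium-glucose cotransporter through which luminal glucose and galactose enter the enterocyte. It followed the same order as Slc2a5. The log2 signal was 2.12 on the intestine, 1.55 on the crypt, -1.07 on the y-organoid and -0.80 on the o-organoid array. Set against crypt it was lower by 6.15-fold in the y-organoid (-2.62, technical SD 0.11) and by 5.12-fold in the o-organoid (-2.36, technical SD 0.10). These were the smallest of the reductions past 2-fold among the 8 genes in both comparisons. The organoids differed by 0.26, which is less than 2-fold and more than 2 technical SD. That SD does not cover the scaling between arrays, and under the other settings the difference ran from 0.11 to 0.90.

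Slc5a4a and Slc5a4b are the mouse relatives of human SGLT3, a protein known as a glucose sensor more than as a carrier, and they parted ways between the organoids. For Slc5a4a the log2 signal was 3.26 on the intestine and 2.75 on the crypt array, then -4.49 on the y-organoid array, where it was not well above background, and -4.80 on the o-organoid array, just above that array's floor. Tissue arrays were high and organoid arrays at the limit of detection. Slc5a4a was at least 149-fold lower in the y-organoid than in crypt, as a bound set by the lowest signal well above background, and 187-fold lower in the o-organoid (-7.55, technical SD 0.17). Its difference ranked 8 from the lowest among the 15015 genes measured on both of those arrays. No fold can be given between the organoids. Slc5a4b did not follow it. Its log2 signal was -0.14 on the intestine, 1.40 on the crypt, -2.70 on the y-organoid and 1.34 on the o-organoid array. Crypt and o-organoid were high and differed by 0.06 against a technical SD of 0.10, and under the other settings o-organoid minus crypt ran from -0.06 to 0.64, so that the sign of this difference is not settled. The intestine lay between, and the y-organoid was lowest. Slc5a4b was 17.1-fold lower in the y-organoid than in crypt (-4.10, technical SD 0.29) and 16.4-fold higher in the o-organoid than in the y-organoid (4.04, technical SD 0.29). That difference between the organoids ranked 6 from the highest among 15553 genes measured on both arrays.

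Slc5a9 encodes SGLT4, a sodium-dependent carrier of mannose and fructose, and it was the member that varied least. The brighter probe gave log2 signals of 1.36 on the intestine, 1.53 on the crypt, 1.64 on the y-organoid and 0.59 on the o-organoid array. The first 3 arrays were close together and the o-organoid array was low. Steps from y-organoid to crypt (0.12) and from crypt to intestine (0.17) were within 2 technical SD, the SD being 0.11 for both. The dimmer probe gave -0.50, -0.25, -1.12 and -1.23 on the same arrays in that order, with both organoids low. The probes disagree on the y-organoid: against crypt the brighter one differed by 0.12 and the dimmer one by -0.87, neither past 2-fold. Against the y-organoid array, the o-organoid array was 2.07-fold lower by the brighter probe (-1.05, technical SD 0.09) and differed by -0.12 by the dimmer probe, within 2 technical SD.

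Slc5a11 encodes a sodium-myo-inositol cotransporter, so that its main known substrate is a sugar alcohol. Its brighter probe gave log2 signals of 4.59 on the intestine, 4.96 on the crypt, -2.11 on the y-organoid and -0.51 on the o-organoid array. The tissue arrays were high, the o-organoid low and the y-organoid lowest. Slc5a11 was 134-fold lower in the y-organoid than in crypt (-7.07, technical SD 0.29), rank 6 from the lowest of 14850 genes measured on both arrays, and 44.2-fold lower in the o-organoid (-5.47, technical SD 0.08), rank 35 of 15015. On the o-organoid array the brighter probe was 3.04-fold higher than on the y-organoid array (1.60, technical SD 0.29). Under the other settings this difference ran from 0.93 to 2.24. The dimmer probe, whose sequence is given above, read -1.40, -0.59, -3.90 and -4.16 in the same order of arrays, and was not well above background on the y-organoid array. Against crypt it had the same direction at smaller size: at least 9.96-fold lower in the y-organoid and 11.9-fold lower in the o-organoid. Between the organoids it gave no fold, so the difference seen there rests on the brighter probe.

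Slc5a12 encodes a sodium-coupled carrier of lactate and other monocarboxylates, and is therefore not a sugar carrier in the strict sense. The brighter probe gave log2 signals of 1.58 on the intestine and 1.84 on the crypt array, against -6.23 on the y-organoid and -7.00 on the o-organoid array, neither of which was well above background. Both tissue arrays were high and both organoid arrays had only a bound. Slc5a12 was at least 79.5-fold lower in the y-organoid and at least 115-fold lower in the o-organoid than in crypt. The other probe gave at least 50.8-fold and at least 73.6-fold in the same comparisons, with log2 signals of 1.07 and 1.20 on the intestine and crypt arrays. No fold can be given between the organoids, since the gene was dim on both.

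**Figure D1:**
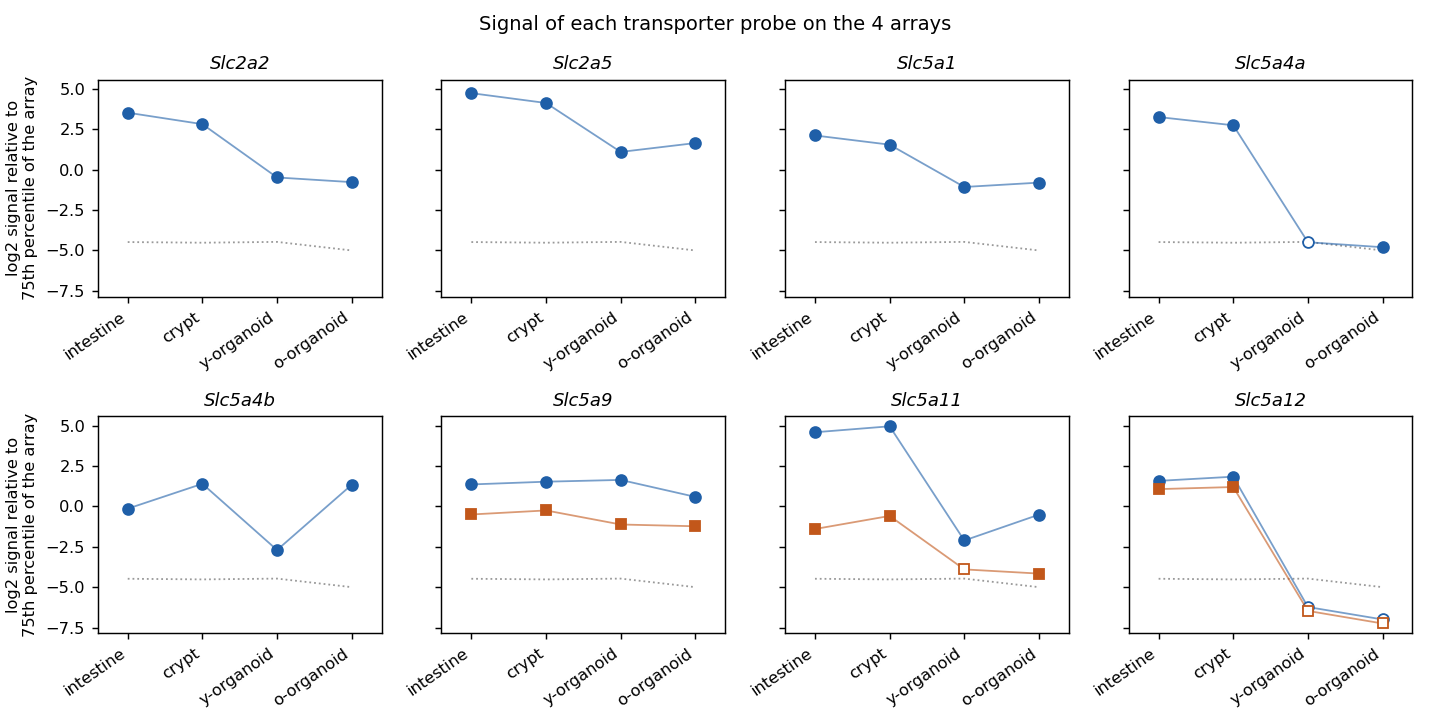
Log2 signal relative to the 75th percentile of the array (vertical axis) for each probe of the 8 transporters on the 4 arrays (horizontal axis); circles are the brighter or single probe, squares the dimmer probe, open symbols are not well above background, and the dotted line is the lowest signal well above background. Slc2a2, Slc2a5, Slc5a1, Slc5a4a, Slc5a11 and Slc5a12 are high on intestine and crypt and low on both organoids, while Slc5a4b is 1.40 on crypt and 1.34 on the o-organoid array.

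The comparison of crypt with whole intestine asks how the carriers differ between isolated crypts and the full organ. Slc5a4b alone passed 2-fold: it was 2.90-fold higher on the crypt array (1.54, technical SD 0.11), rank 240 from the highest of 15202 genes measured on both. The other 7 members were within 2-fold. Slc2a2 differed by -0.70, Slc2a5 by -0.61, Slc5a1 by -0.57 and Slc5a4a by -0.51, whereas Slc5a11 differed by 0.37, Slc5a12 by 0.26 and Slc5a9 by 0.17. Scaling by the array median in place of the 75th percentile turns those 4 negative values to 0.04 to 0.23 and takes Slc5a11 and Slc5a12 to 2-fold higher, so their direction depends on the scaling. Of all genes, 6.83% were at least 2-fold higher on crypt and 14.2% at least 2-fold lower, and the 1 member higher and 0 members lower stand beside these shares. No member was 4-fold higher, beside 0.362% of all genes. The enterocyte markers were measured on both arrays: 18 of 18 were well above background on each, their summed linear signal in units of the 75th percentile was 2750 on intestine and 2198 on crypt, and their median difference was -0.26. Over the other scalings of the arrays that median ran from -0.42 to 0.48, so enterocyte transcripts in the crypt RNA were near their level in the whole organ. Of the stem and proliferation markers, 9 of 10 were at least 2-fold higher on crypt, with a median of 1.40. Markers of muscle and stroma were well above background for 10 of 10 genes on intestine (summed signal 120) and 1 of 10 on crypt (0.630). For immune cells the counts were 8 of 8 (150) and 6 of 8 (12.3), and for pancreas and fat 10 of 10 (5227) and 6 of 10 (1.21). On the crypt array Acta2, Myh11, Col1a1, Prss2 and Adipoq were among the genes not well above background. The part of these other cells in the crypt difference of the carriers was not tested.

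The comparison of each organoid with crypt asks how the carriers differ between cultured epithelium and freshly isolated crypts. On the y-organoid array 7 of 8 members were at least 2-fold lower than on crypt, and all of those 7 were also at least 4-fold lower. Of all 17200 genes, 13.6% were 2-fold lower and 4.42% were 4-fold lower, and the median difference was -3.70 for the members and 0.16 for all genes. Slc5a9 was the exception. On the o-organoid array 6 of 8 members were at least 2-fold lower, all 6 also at least 4-fold, beside 13.6% and 4.39% of all 17203 genes. The members' median difference there was -3.03 and that of all genes -0.01. The exceptions were Slc5a9 (-0.93) and Slc5a4b (-0.06). No member was 2-fold higher than crypt on either organoid array, where 18.4% of genes on the y-organoid and 8.50% on the o-organoid array were. Both comparisons share the crypt array, so a reading particular to that array enters both.

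Against whole intestine the picture was similar for 7 of the members and different for Slc5a4b. On the y-organoid array 7 of 8 members were at least 2-fold lower than on intestine, beside 19.9% of all genes, with a members' median of -3.82. On the o-organoid array 6 of 8 were lower, beside 24.2%, with a median of -3.69. Slc5a4a had the largest reductions, at least 211-fold on the y-organoid array and 266-fold (-8.06) on the o-organoid array. Slc2a2 was 16.1-fold and 19.6-fold lower, Slc2a5 12.4-fold and 8.49-fold, Slc5a1 9.13-fold and 7.61-fold, and Slc5a11 104-fold and 34.3-fold. Slc5a4b was 5.91-fold lower in the y-organoid (-2.56) and 2.78-fold higher in the o-organoid (1.48), the only member higher than intestine past 2-fold, where 16.1% of all genes were. No member was 2-fold higher in the y-organoid (20.6% of all genes) or 4-fold higher in the o-organoid (3.44%). These comparisons share the intestine array with each other and the organoid arrays with the comparisons against crypt.

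**Figure D2:**
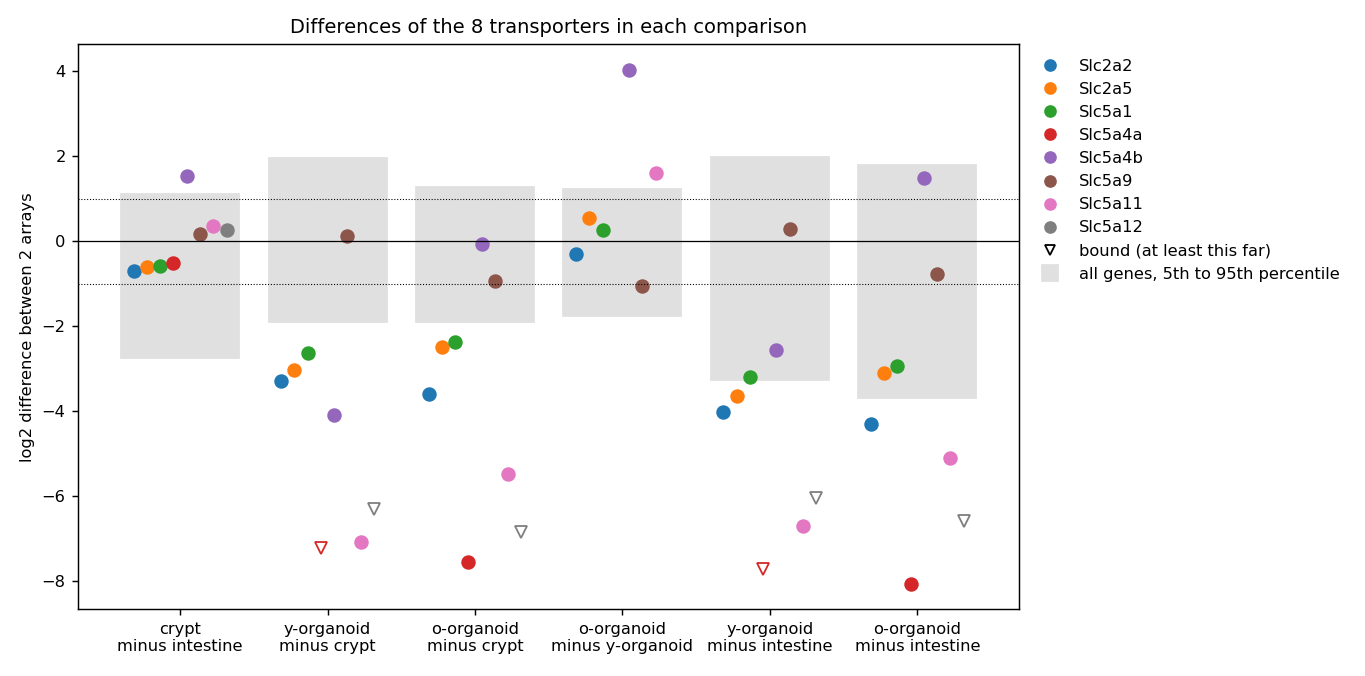
Log2 difference between the arrays named on the horizontal axis, 1 point per transporter; open triangles are bounds, grey bars run from the 5th to the 95th percentile of all genes tested, and dotted lines mark 2-fold. On y-organoid minus crypt 7 of the 8 transporters lie below the grey bar, whose lower end is -1.91, and on o-organoid minus y-organoid Slc5a4b stands at 4.04 above a bar that ends at 1.23.

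The comparison of the organoids sets o-organoid against y-organoid. Slc5a4b and, by its brighter probe, Slc5a11 were higher on the o-organoid array past 2-fold, by 16.4-fold and 3.04-fold. Slc5a9 was 2.07-fold lower by its brighter probe. The dimmer probe of Slc5a11 gave no fold between the organoids, and the brighter one ran from 0.93 to 2.24 under the other settings. Of the 7 members tested, 2 were thus higher and 1 lower, beside 8.30% and 19.3% of all 17297 genes, and at 4-fold Slc5a4b was higher and no member lower, beside 0.942% and 3.01%. Slc2a2 (-0.29), Slc2a5 (0.55) and Slc5a1 (0.26) were within 2-fold, although Slc2a5 passes it and Slc2a2 changes sign with median scaling. Slc5a4a had no fold and Slc5a12 was dim on both arrays. The enterocyte markers also differed between the organoids: 6 of 16 were at least 2-fold higher in the o-organoid and 0 lower, with a median of 0.69, and their summed signal was 232 on the y-organoid and 477 on the o-organoid array. Cubn and Slc15a1 were not well above background on either organoid array. The difference of Slc5a4b was above that of all 16 enterocyte markers measured, the highest of which were Cyp3a11 (3.68) and Rbp2 (3.43). The starting RNA was 40 ng for the o-organoid and 20 ng for the y-organoid. The part of either in these differences was not tested.

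**Figure D3:**
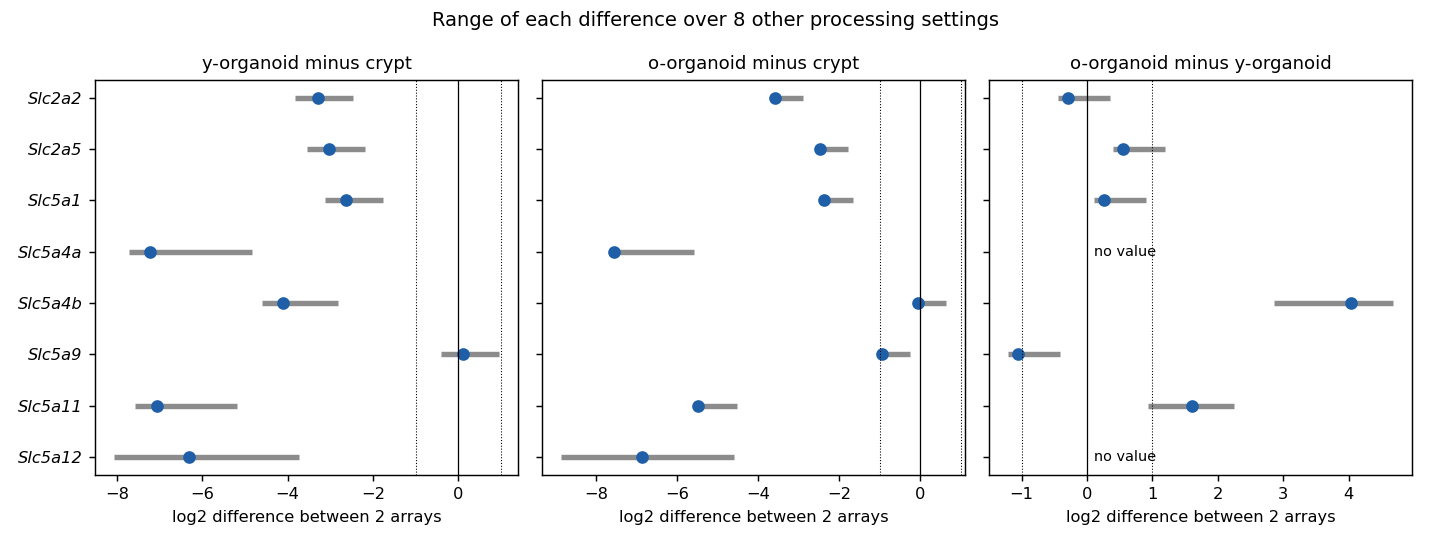
Log2 difference of each transporter as reported (point) and its range over 8 other processing settings (grey bar) in the comparisons of the organoids with crypt and with each other; dotted lines mark 2-fold, and bounds are plotted at their value. The reductions against crypt past 2-fold, of 7 and of 6 members, stay at -1.66 or lower. In the comparison of the organoids the bars of Slc2a5, Slc5a9 and Slc5a11 cross 2-fold.

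Other absorptive genes were also lower in culture, to differing extents. The brush border enzymes that feed the carriers were lower on both organoid arrays: 4 of 4 were at least 2-fold lower than on crypt, with medians of -3.65 on the y-organoid and -2.78 on the o-organoid array. Lct, which encodes lactase, was 462-fold and 197-fold lower (-8.85 and -7.62). Treh, encoding trehalase, differed by -4.35 and -3.36, and Sis, encoding sucrase-isomaltase, by -2.94 and -2.21. Mgam, encoding maltase-glucoamylase, differed by -1.28 on both, but its other probe gave -0.53 and -2.30. The enterocyte markers were lower for 18 of 18 genes on the y-organoid (median -3.87) and 16 of 18 on the o-organoid array (median -3.21). Among the 16 enterocyte genes measured on both arrays, none was as low as Slc5a4a or Slc5a11 in the y-organoid, and Slc5a12 was lower than 14. The value of Slc5a1 lay above 14 of the 16. In the o-organoid none was as low as Slc5a4a or Slc5a12, and Slc5a11 was lower than 15, while Slc5a4b lay above all 16. Cubn and Slc15a1 have bounds in both comparisons and are left out of these counts. The place of Slc5a11 in them rests on its brighter probe. The dimmer probe gave -3.32 as a bound in the y-organoid. In the o-organoid it gave -3.57, above Apoa1 (-5.50) and Anpep (-4.09) among the enterocyte genes. The bounds of Cubn, at least 194-fold lower in the y-organoid (-7.60) and at least 281-fold lower in the o-organoid (-8.14), are below every carrier measured on both arrays in the same comparison, and have no order against carriers that are bounds themselves. This order holds for the brighter probe of Cubn only, as its other probe gave -2.59 and -3.12. The general epithelial markers were well above background for 13 of 14 genes on every array, and their median difference from crypt was -0.52 on the y-organoid and -0.33 on the o-organoid array. Of the 13, 1 was higher and 3 lower on each. The list holds Krt20, a keratin of mature gut epithelium (-5.09 and -5.41), and Vil1, which is also among the enterocyte markers (-2.79 and -2.22). Its mean, by which 1 of the alternative settings scales the arrays, differed from crypt by -0.85 and -0.70 with these 2 genes and by -0.29 and -0.13 without them. Among the stem and proliferation markers, stem cell genes were higher than on crypt past 2-fold, 5 on the y-organoid and 4 on the o-organoid array, and none of the 5 proliferation genes (Mki67, Top2a, Cdk1, Pcna and Mcm2) passed 2-fold on either. Lgr5 was at 3.24 and 2.71, Ascl2 at 1.56 and 1.43, Smoc2 at 1.61 and 1.22, Olfm4 at 1.42 and 1.09, and Axin2 at 2.43 in the y-organoid and just short of 2-fold in the o-organoid. What share of the carriers' reduction goes with the cell types present was not tested.

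**Figure D4:**
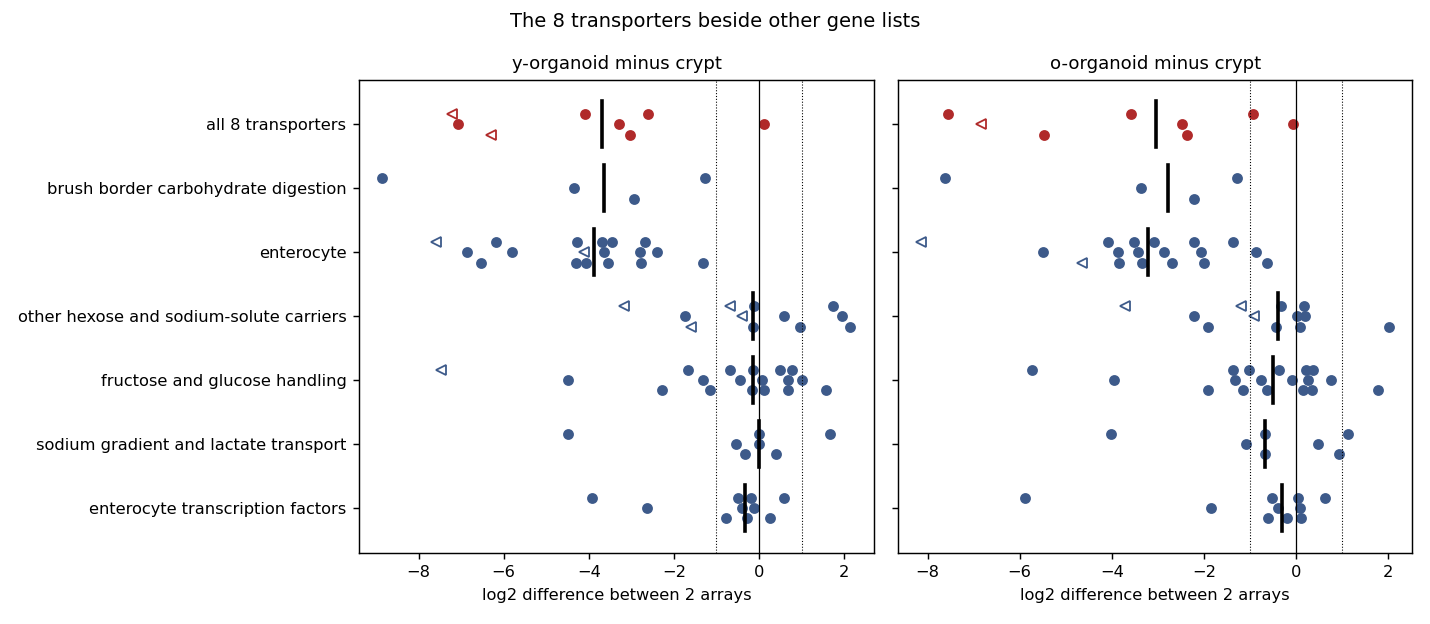
Log2 difference from crypt for the y-organoid (left) and the o-organoid (right) array, 1 point per gene in each list; triangles are bounds, black bars are list medians and dotted lines mark 2-fold. The transporters, the brush border enzymes and the enterocyte markers have medians between -3.87 and -2.78, and the other 4 lists shown (other hexose and sodium-solute carriers, fructose and glucose handling, sodium gradient and lactate transport, and enterocyte transcription factors) have medians between -0.68 and -0.00.

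Other carriers of the same families did not share the reduction as a group. Of 18, 12 had a value in each comparison with crypt, some of them as bounds. On the y-organoid array 3 were higher and 3 lower (median -0.13), and on the o-organoid array 1 was higher and 4 lower (median -0.39). Under other scalings these medians ran from -0.65 to 1.08 and from -0.39 to 0.31. Slc2a1, which encodes GLUT1, the glucose carrier of most proliferating cells, was 3.32-fold higher in the y-organoid and 4.06-fold higher in the o-organoid (1.73 and 2.02). Slc5a3, a sodium-myo-inositol carrier like Slc5a11, was 4.44-fold higher in the y-organoid (2.15; 0.90 by its other probe) and differed by 0.19 on the o-organoid array. Slc5a10 differed by 1.95 and 0.09, the second of which changes sign under other scalings. Among those lower, Slc2a7, a hexose carrier of the intestine, was at least 9.07-fold lower in the y-organoid and at least 13.1-fold lower in the o-organoid. Slc2a9, a urate carrier, differed by -1.73 and -2.21. Slc2a10 differed by -1.59 as a bound and by -1.91, and Slc2a13, an inositol carrier, by -0.67 and -1.20, both as bounds. Slc2a4, Slc2a6 and Slc2a3 were well above background on no array but that of whole intestine. Slc2a4, the insulin-responsive carrier of muscle and fat, was at least 19.4-fold lower on crypt than on intestine, where the muscle and fat markers were lower too. Slc5a5, Slc5a7 and Slc5a8 were dim on all 4 arrays.

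The genes that handle the sugars after entry were mixed. Of 18, 2 were higher and 6 lower on the y-organoid than on the crypt array (median -0.15), and 1 higher and 7 lower on the o-organoid array (median -0.50); under other scalings these medians ran from -0.66 to 0.70 and from -0.56 to 0.19. The lowest values were those of genes of glucose release and synthesis. G6pc, encoding the glucose-6-phosphatase catalytic subunit, was 22.4-fold and 15.5-fold lower (-4.49 and -3.95). Pck1, encoding a gluconeogenic carboxykinase, was at least 179-fold lower in the y-organoid and 53.1-fold lower in the o-organoid. The fructose bisphosphatase genes differed between the organoids: Fbp1 gave -0.45 (its sign changes under other scalings) and -1.92, and Fbp2 gave -2.28 and -0.75. Khk, encoding ketohexokinase, the first enzyme of fructose breakdown, differed by -1.68 and -1.37 (-0.76 and -0.57 by its other probe). Hk2, a hexokinase, was higher on both arrays, by 1.57 and 1.79, and Gpi1, the glucose-6-phosphate isomerase, differed by 1.02 and 0.16.

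The remaining lists hold regulators and the sodium gradient. Pdzk1, a scaffold protein of the brush border, was 81.9-fold lower in the y-organoid and 139-fold lower in the o-organoid than in crypt (-6.36 and -7.12), and its other probe gave -6.46 and -7.16. Sgk1, a kinase that regulates sodium transport, was at least 39.1-fold lower in the y-organoid and differed by -5.77 on the o-organoid array. Its o-organoid signal of -4.95 was just above that array's floor of -5.00, and the difference reached -3.83 under another scaling. The list of sugar sensing and carrier regulation had 3 of 7 lower and 1 higher on the y-organoid array, and 4 of 8 lower and 0 higher on the o-organoid array. Besides Pdzk1 and Sgk1, the lower genes were Rab11a (-1.47), a vesicle traffic GTPase, in the y-organoid, and Gip (-1.22), an incretin hormone, and Trpm5 (-1.18), a taste-signalling channel, in the o-organoid. In the y-organoid Trpm5 was the 1 gene higher, at the 2-fold limit. The sweet taste receptor gene Tas1r2 and its G protein gene Gnat3 were dim on all 4 arrays. Slc9a3, the sodium-proton exchanger of the brush border, was 22.3-fold and 16.3-fold lower (-4.48 and -4.02; -1.25 and -1.78 by its other probe). Atp1b1, a subunit of the pump that maintains the gradient, differed by 0.01 and -0.68, and both values change sign under at least 1 other scaling. Slc16a3, a lactate carrier, was higher by 1.66 and 1.13.

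Of 10 transcription factors of enterocytes, 2 were at least 2-fold lower on each organoid array than on crypt and none was higher. Isx, an intestine-specific homeobox factor, differed by -3.93 and -5.88, and Hnf4g by -2.63 and -1.85. Hnf4a, a known activator of enterocyte genes, differed by -0.39 and -0.61 and Cdx2 by 0.27 and -0.39; these values are within 2-fold, and their sign flips under at least 1 other scaling of the arrays. The list's median ran from -0.85 to 0.51 on the y-organoid and from -0.30 to 0.40 on the o-organoid array over the scalings.

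The genes closest in pattern to each member were taken by the root mean square difference of log2 signals, each centred on its own mean over the arrays, among 11221 genes well above background on all 4 arrays. Closest to Slc2a2 were Clec2h (0.16), Ggt1 (0.17) and Cox7a1 (0.18). For Slc2a5 they were Plac8 (0.07), Cpne2 (0.11) and H2-Q3 (0.12), and for Slc5a1 H2-Q6 (0.07), Slc26a6 (0.09) and Leng9 (0.11). Slc5a4b was closest to Aldh1a1 (0.30), Defa21 (0.35) and Ugt2b5 (0.44), each high on crypt and o-organoid and lowest on the y-organoid array. Defa21 encodes an alpha-defensin, a class of peptides secreted by Paneth cells, and belongs to a family of near-identical copies whose probes may not be told apart. Slc5a11, by its brighter probe, was closest to Reg3a (0.25), an antimicrobial lectin gene, and to the apolipoprotein genes Apoa1 (0.54) and Apoa4 (0.57). For Slc5a9, by its brighter probe, the closest were Kcna6 (0.03), Casd1 (0.04) and Agpat1 (0.04). The dimmer probes of Slc5a11 and Slc5a9, which read the organoid arrays differently, were not compared. Slc5a4a was compared over the 3 arrays on which it was well above background, among 194 genes with the same flags, and was closest to Apol10a (0.37), Vwa1 (0.75) and Clca4a (0.75). Slc5a12 was well above background on 2 arrays and was not compared. How many other genes lie about this close was not counted, and likeness over so few arrays describes these arrays only.

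Slc5a4a and Slc5a4b lie next to each other on chromosome 10 on opposite strands, and their differences between o-organoid and crypt, -7.55 and -0.06, are far apart, so the sequences before their start sites are given. They are the 250 bases upstream of the annotated start in RefSeq, build GRCm38.p6, 5′ to 3′ on the strand of the gene, at chr10:76147201-76147450 for Slc5a4a (plus strand) and chr10:76111019-76111268 for Slc5a4b (minus strand).
Slc5a4a, upstream: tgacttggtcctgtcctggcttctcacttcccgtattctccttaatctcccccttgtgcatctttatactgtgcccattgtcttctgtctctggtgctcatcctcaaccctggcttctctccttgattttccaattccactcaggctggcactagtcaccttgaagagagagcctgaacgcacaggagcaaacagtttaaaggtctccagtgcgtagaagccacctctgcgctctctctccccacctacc
Slc5a4b, upstream: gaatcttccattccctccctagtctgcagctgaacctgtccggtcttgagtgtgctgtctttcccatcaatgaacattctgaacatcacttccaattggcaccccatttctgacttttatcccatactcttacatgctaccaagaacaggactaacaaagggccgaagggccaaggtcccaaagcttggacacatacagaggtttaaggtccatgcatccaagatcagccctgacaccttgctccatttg
Just after the start sites both genes hold the 10-base run TGATCATTAA, in capitals below, the longest run shared by their windows of 300 bases (250 before and 50 after the start). It begins at base 7 from the start in Slc5a4a and at base 10 in Slc5a4b.
Slc5a4a, chr10:76147447-76147476: tacctgaggcTGATCATTAActcaggactt
Slc5a4b, chr10:76110990-76111019: gcctgagggtTGATCATTAAtccagtgcct
The run occurs on either strand in 12 of 32851 such windows, or 0.0365%, the windows of both genes included. It was picked because both windows hold it, so its presence in both is given in advance. Of the 8 members 6 have a window, Slc5a9 and Slc5a12 being without one. Searched on both strands of those 6, the HNF4 site CAAAGTCCA was in none (0.475% of all windows), as was the GATA site AGATAAG (3.04%). The CDX site TTTATG was in Slc5a4b (11.9%) and TATAAA in Slc5a4a (13.6%). These are matches of letters within the windows.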

How the data were processed

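Per the labels' protocols, total RNA was extracted by the guanidinium method and labelled with a low-input kit from Agilent. The deposited scanner files hold spot intensity on a linear scale, made with Agilent Feature Extraction 10.7.3.1, per the file headers. The deposited value table was found to hold a ratio: processed intensity over 1 constant per array (40.47 intestine, 29.45 crypt, 25.16 y-organoid, 36.94 o-organoid), with a median of 1.0 in every column. No header or label used here names the tool behind the deposited ratio.

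The 1377 control spots per array and outlier spots were left out, and log2 of the processed intensity was taken relative to the 75th percentile of the array. Where a gene has several probes, the one brightest on average was used. Names came from the RefSeq gene table (assembly GRCm38.p6, names only) for 27324 probes by accession, 3518 by symbol and 551 by synonym, and 8036 kept the name in the files. A gene entered a comparison if at least 1 of the 2 arrays read it well above background. Where the other side was dim, the difference is a bound against the higher of that array's lowest signal well above background and the probe's own signal. Calls are at 2-fold, with 4-fold beside it. With 1 array per group nothing was tested between groups.

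Named genes are all members, up to 4 list genes with the largest difference in each comparison, genes that make up a count of 5 or fewer, and the 3 closest in pattern. Atp1b1, Hnf4a and Cdx2 were named outside that rule after their values were seen. The members and lists were chosen with earlier results of these data known. Rsc1a1 and Mgam2 were not matched to a probe here. Some genes of the lists and 1 motif searched are not reported here. Alternatives were median scaling, quantile normalization, scaling to the epithelial markers, normexp with an offset of 50, the deposited table, the median over probes, outliers kept, no filter on dim probes, and 4-fold calls. The scripts (Python 3.11.15, pandas 2.3.3, numpy 2.4.6, R 4.3.3, limma 3.58.1) were tested on simulated data.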

Additional observations from a re-analysis of the deposited data

Results flagged for a closer look

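Slc5a4b moved in opposite directions from the same intestine array on the organoid arrays: -2.56 on the log2 scale for y-organoid minus intestine and 1.48 for o-organoid minus intestine. Each value compares 1 array with 1 array, and the difference between them was not tested. The gene has a single probe on the array, so no other probe gives a second reading.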

How the results depend on the processing

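Over 31 member differences past 2-fold and 8 settings, all 248 values kept their direction and 243 stayed past 2-fold. Many of these values could not change or repeat each other. No member spot was an outlier, and the median over probes cannot move members with a single probe. The filter on dim probes touches bounds only, and the deposited table gives the same shifts as median scaling. Counts of members moved in 4 cases. Members higher on crypt than intestine numbered 3 with median scaling and with the deposited table and 0 at 4-fold, against 1. Members lower on o-organoid than y-organoid numbered 0 with median scaling, normexp, the deposited table, the median over probes and 4-fold, against 1, which is Slc5a9 (-1.20 to -0.41). Members higher there numbered 1, without Slc5a11 (0.93 to 2.24), with normexp and at 4-fold, against 2. They numbered 3, with Slc2a5 added, with median scaling and the deposited table. Members higher on o-organoid than intestine numbered 0 at 4-fold, against 1. Median scaling moved the median difference of all genes by 0.74 for crypt minus intestine, -0.51 for y-organoid minus crypt, 0.64 for o-organoid minus y-organoid and 0.86 for o-organoid minus intestine. The pan-epithelial scaling moved it by 0.85 for y-organoid and 0.70 for o-organoid minus crypt. The share of higher among called genes moved with them: for crypt minus intestine from 32.4% to 81.6% (median scaling), 53.9% (quantile) or 21.3% (pan-epithelial), for y-organoid minus crypt from 57.5% to 25.6% or 90.4% (median, pan-epithelial), for o-organoid minus crypt from 38.4% to 48.6% or 84.0% (median, pan-epithelial), and for o-organoid minus y-organoid from 30.1% to 80.0%, 47.8% or 19.7% (median, quantile, pan-epithelial). Against intestine it moved from 50.9% to 62.2% (median) or 78.5% (pan-epithelial) on the y-organoid, and from 39.9% to 76.2%, 55.8% or 65.6% (median, quantile, pan-epithelial) on the o-organoid array. The cause was not tested. No paired analysis was possible because each group has 1 array, and no array could be left out. Signals near background limit Slc5a4a and Slc5a12 on the organoid arrays to bounds or near-bounds.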

Other observations

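The lists of regional markers gave further values. Of 5 genes marking the distal small intestine that had a value, 5 were past 2-fold lower in the y-organoid than in crypt (median -4.30). They were Guca2b (-3.74), Slc51a (-4.30), Slc51b (-4.86), Cubn (-7.60 as a bound, -2.59 by its other probe) and Fabp6 (-1.96 as a bound). On the o-organoid array 5 of 6 were lower (median -3.36), and Slc10a2, the ileal bile acid carrier, was at least 2.37-fold higher than on crypt, where it was dim. That bound, 1.25 on the log2 scale, ran from 0.39 to 1.94 under other scalings, so it does not stay past 2-fold. Of 7 markers of the proximal small intestine, 3 were lower on the y-organoid array (Lct, Fabp1 and Apoa4) and 2 higher (Cybrd1 and Slc40a1). Cybrd1, a ferric reductase of the duodenum, was 18.6-fold higher on the y-organoid array (4.22) and 4.18-fold higher on the o-organoid array (2.06), while Lct of the same list was lower on both. Slc40a1, the iron exporter, differed by 1.20 and 0.50. The other Cybrd1 probe gave 3.89 and 1.39 against crypt. Both genes were low in crypt: crypt minus intestine was -2.29 for Cybrd1 and -2.12 for Slc40a1. Set against intestine, Cybrd1 differed by 1.93 in the y-organoid. Its o-organoid value was -0.23 and changes sign under other scalings. Slc40a1 gave -0.92 and -1.62 against intestine, so neither culture was above whole intestine for this gene. Liver and kidney markers were well above background for 2 or 3 of 6 genes on each array, with a summed signal of 1.01 to 2.04, and Slc34a1 and Umod of the kidney were dim on all 4 arrays.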
